A study of Mus musculus with 6 samples.

Results

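The RNAs described here are 8 long noncoding RNAs of the mouse heart. Malat1, Neat1 and Kcnq1ot1 stay in the nucleus, and Meg3, Rian, Mirg, H19 and Dnm3os are imprinted RNAs or RNAs of fibroblasts. They were picked by name: a member is a row whose Ensembl identifier carries one of these symbols in the GENCODE mouse annotation, so the rule uses no measured value. All 8 were found, among 54532 identifiers in the table and 9680 annotated as long noncoding RNA genes. The values are FPKM, fragments counted relative to exon length and to a denominator for each library.

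Heart RNA (left ventricular myocardium by the study's methods) was sequenced from 3 Chow mice and 3 HFpEF mice, each library from a distinct animal. All were male, wild-type C57BL/6 mice that entered the study at 6 to 8 weeks of age. The HFpEF mice (a model of heart failure with preserved ejection fraction) had 12 weeks of a high-fat diet, with fat supplying 60% of the kcal, and drank water of pH 7.4 with 0.5 g/L of L-NAME, which blocks the synthesis of nitric oxide. The Chow mice had standard chow and plain water over the same 12 weeks, so diet and L-NAME cannot be told apart in this design. The comparison asks which of these RNAs differ in level between the hearts of the 2 groups.

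Long noncoding RNAs act as RNA and are not translated. Malat1 collects in nuclear speckles, where splicing factors are stored. Neat1 is the scaffold of paraspeckles, nuclear bodies that hold RNA-binding proteins. Kcnq1ot1 is transcribed from the paternal chromosome, antisense to the potassium channel gene Kcnq1, and silences neighbouring genes on that chromosome. Meg3, Rian and Mirg lie in a row in the Dlk1-Dio3 imprinted domain, are transcribed from the maternal chromosome, and carry many microRNAs and small nucleolar RNAs (snoRNAs) in their introns and exons. H19, also maternal, is abundant in the embryo, lies next to the growth factor gene Igf2 and is the host of miR-675. Dnm3os runs against the strand of Dnm3 and is the precursor of miR-199a and miR-214 in mesenchymal cells.

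On the GRCm38 build Malat1 (ENSMUSG00000092341) lies on chromosome 19 at 5795690-5802672 and Neat1 (ENSMUSG00000092274) beside it at 5824708-5845478, both on the minus strand and both unspliced in the merged exon model. Kcnq1ot1 (ENSMUSG00000101609) is a single exon block of 93092 bases on chromosome 7 at 143203458-143296549, minus strand. H19 (ENSMUSG00000000031), at 142575529-142578143 on the same strand of chromosome 7, has 2460 exonic bases in 3 blocks. Meg3 (ENSMUSG00000021268) begins the row on the plus strand of chromosome 12 at 109541001-109571726. Rian (ENSMUSG00000097451) follows at 109603940-109661716 with 19 exon blocks, and Mirg (ENSMUSG00000097391) at 109729764-109749460 with 14. Dnm3os (ENSMUSG00000078190) is a single block of 7928 bases on the plus strand of chromosome 1 at 162217623-162225550.

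The mature microRNAs below are cut from hosts in this set, and are shown because their hosts are members. RefSeq (build GRCm38.p6) placed 41 mature microRNAs from 22 genes inside a member on its own strand, of which Mirg held 26, Rian 6, Dnm3os 4, Meg3 3 and H19 2. Capitals mark the seed, bases 2 to 8 from the 5′ end, which pairs with target RNAs. The first 4 lines are from Dnm3os, the next pair from H19, the next pair from Meg3 and the last pair from Mirg.
mmu-miR-199a-5p: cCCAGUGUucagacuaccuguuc
mmu-miR-199a-3p: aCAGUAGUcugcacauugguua
mmu-miR-214-5p: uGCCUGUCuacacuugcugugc
mmu-miR-214-3p: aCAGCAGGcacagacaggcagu
mmu-miR-675-5p: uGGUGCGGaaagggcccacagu
mmu-miR-675-3p: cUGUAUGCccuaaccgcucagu
mmu-miR-770-5p: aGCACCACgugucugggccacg
mmu-miR-770-3p: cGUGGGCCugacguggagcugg
mmu-miR-453: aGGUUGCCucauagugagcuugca
mmu-miR-496a-5p: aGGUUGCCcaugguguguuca
The last pair share the seed GGUUGCC, the only seed held by more than 1 of the 41. The genes of that pair lie outside the annotated exons of Mirg, so the exon value of Mirg does not cover them. Mature microRNAs were not measured in these libraries, and the values below are those of the hosts' exons.

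The promoters of Meg3 and Dnm3os are printed as those of the first gene of the Dlk1-Dio3 row and of the microRNA host on chromosome 1, both with a higher mean in HFpEF libraries. RefSeq gave a promoter window, 250 bases before to 50 after a gene start, for 6 of the 8. In the first of the 2 Meg3 windows (GRCm38.p6, chr12:109540746-109541045, plus strand) capitals mark TGACGTCA, the cyclic AMP response element, which began 57 bases before the start. In the Dnm3os window (chr1:162217373-162217672, plus strand) capitals mark CATCTG, an E-box, 138 bases before the start, and a CArG box, the motif of serum response factor, 33 bases before it. The second Meg3 window, at a start further into the gene, also held a CArG box.
Meg3: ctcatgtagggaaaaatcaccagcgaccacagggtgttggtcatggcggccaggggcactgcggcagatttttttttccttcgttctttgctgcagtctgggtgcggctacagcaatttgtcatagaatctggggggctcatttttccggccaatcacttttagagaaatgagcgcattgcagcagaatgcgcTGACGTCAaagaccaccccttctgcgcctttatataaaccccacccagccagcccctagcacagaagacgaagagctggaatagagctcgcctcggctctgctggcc
Dnm3os: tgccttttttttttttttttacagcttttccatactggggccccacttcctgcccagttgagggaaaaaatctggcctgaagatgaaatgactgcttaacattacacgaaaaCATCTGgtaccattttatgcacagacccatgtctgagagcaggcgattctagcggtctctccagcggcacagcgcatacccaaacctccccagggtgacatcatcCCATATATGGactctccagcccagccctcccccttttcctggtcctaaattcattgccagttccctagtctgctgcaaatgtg
On either strand, TGACGTCA was found in 1.79% of all 32851 windows, a CArG box in 1.63% and CATCTG in 17.2%. CCAAT, found in 37.4% of windows, occurred 3 times in the Kcnq1ot1 window. These are matches of letters and not measured binding sites.

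Malat1 ends unusually, without a poly(A) tail, and the stretch that closes its mature end is printed because the library kit was one for mRNA. Capitals in these 100 bases (transcript positions 6592 to 6691, chr19:5795982-5796081, minus strand) mark the runs of at least 5 T and the genomically encoded A-rich tract. The GENCODE model goes on for 292 bases after the tract.
Malat1: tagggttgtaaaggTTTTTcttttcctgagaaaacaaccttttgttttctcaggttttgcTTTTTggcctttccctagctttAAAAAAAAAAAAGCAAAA

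Library facts bear on the results as follows. Between 13076772 and 16027084 reads per library could be recovered from the values. The denominators that the FPKM imply were not these totals. Chow replicate 1 had 14239712 against 15574915 recovered reads, and HFpEF replicate 3 had 19316914 against 15196287. Mitochondrially encoded genes held 24.0% to 26.0% of the recovered reads in Chow libraries, but 22.6%, 20.1% and 7.17% in HFpEF replicates 1, 2 and 3. HFpEF replicate 3 stood apart also in its fibroblast markers, whose summed FPKM was 787 to 989 in the Chow libraries, 1485 and 1555 in HFpEF replicates 1 and 2 and 6652 in replicate 3, so the members' results are given with and without it. In bulk tissue more cells of a type and more RNA per cell cannot be told apart. Myh6, the main myosin heavy chain of mouse cardiomyocytes, was at 1541 to 3373 FPKM in every library.

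Mean levels over the 6 libraries ran from 0.0729 FPKM for Kcnq1ot1 to 121 FPKM for Malat1, on a scale that is per length. The kit was one for mRNA and Malat1 has no poly(A) tail, so the order is of measured values. How well each RNA was captured was not tested. Malat1 had the highest mean of all 831 tested long noncoding RNA genes, Neat1 ranked 10, H19 12, Meg3 217 and Rian 396. In Chow libraries the ranges of Malat1, Neat1, H19, Meg3 and Rian, in that order, did not overlap from one to the next. Rian and Dnm3os overlapped, as did Kcnq1ot1 and Mirg at the bottom. In HFpEF libraries H19, at 25.5 to 33.3 FPKM, overlapped Neat1, at 23.9 to 26.3 FPKM.

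**Figure D1:**
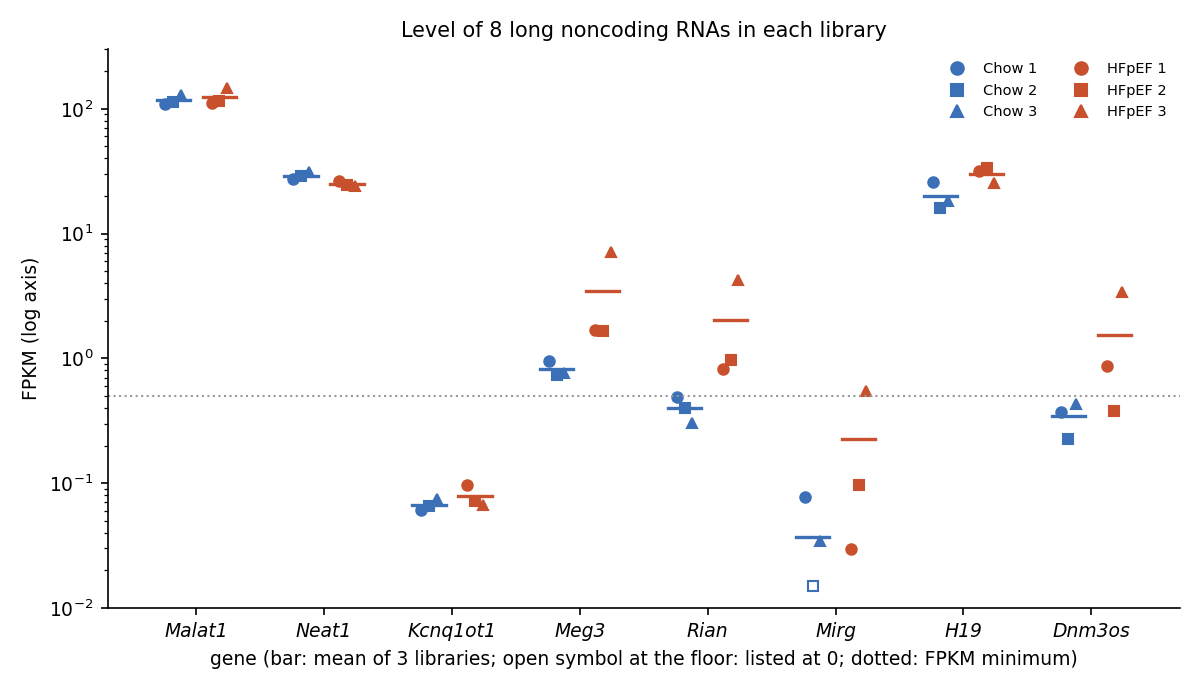
FPKM (log axis) of the 8 RNAs in each of the 6 libraries, with the mean of each group as a bar; symbols give the replicate. Meg3 and Rian lie higher in all 3 HFpEF libraries than in any Chow library, HFpEF replicate 3 reaches 7.07 FPKM for Meg3, and Malat1 lies at 109 FPKM or above throughout.

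No member passed the adjusted threshold when all 6 libraries were used. Of the 8 RNAs 5 had at least 0.5 FPKM in at least 3 libraries and were tested with limma (Malat1, Neat1, Meg3, Rian and H19), and Rian got there only through its 3 HFpEF libraries. None of them had an adjusted p under 0.05, where 0.0984% of all 14225 tested genes did, and none met the study's further demand of a log2 fold change of at least 2 in size, which 0.0562% of tested genes met. Meg3, Rian and H19 had an unadjusted p under 0.05, all higher in HFpEF, where 10.2% of all tested genes did in that direction and 23.3% in either. That count of 3 became 0 without Chow replicate 2 and without Chow replicate 3, and 4, with Neat1 added, without HFpEF replicate 3. Calls over all 14225 tested genes moved too, from 3320 with all libraries to 1911 without Chow replicate 2 and 2101 without Chow replicate 3. Without HFpEF replicate 3 they were 3583 (25.2%). The groups did not overlap for 3 of the 5, where 35.3% of all tested genes did not. Meg3 and Rian were those with HFpEF above (15.6% of all tested genes) and Neat1 the one with HFpEF below (19.7%). Since Rian met the minimum only through the group where it is high, its part in these counts is no support.

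Malat1 did not differ beyond the spread within groups. It had 109, 113 and 128 FPKM in Chow replicates 1, 2 and 3 and 111, 116 and 148 FPKM in HFpEF replicates 1, 2 and 3. The groups overlapped, with HFpEF replicate 3 the highest library. The mean was 117 ± 9.71 FPKM in Chow and 125 ± 19.9 FPKM in HFpEF (SD, n = 3 each). The log2 fold change was 0.09 (SE 0.15, limma adjusted p = 0.756), with a 95% interval of -0.28 to 0.45, and without HFpEF replicate 3 it was -0.04. Quantile normalization gave 0.39 (adjusted p = 0.351). These values rest on 9294 to 19927 reads a library, the most of any member.

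Neat1, the neighbour of Malat1, was the only member lower in every HFpEF library. It had 27.5, 29.2 and 30.9 FPKM in Chow and 26.3, 24.6 and 23.9 FPKM in HFpEF. The lowest Chow value was thus just above the highest HFpEF value, and the spread within each group was narrow. The mean was 29.2 ± 1.72 FPKM in Chow and 24.9 ± 1.22 FPKM in HFpEF (SD, n = 3 each), a ratio of 0.854. The log2 fold change was -0.23 (SE 0.10, limma adjusted p = 0.224) with a 95% interval of -0.46 to 0.01, and -0.20 without HFpEF replicate 3. An exact two-sided permutation test gave p = 0.1, the smallest that 3 against 3 libraries allow. Scaling to the genes that are not mitochondrially encoded turned its sign, to 0.03, but that scaling moved the median of all genes by 0.25. Relative to the median of all tested genes Neat1 was at -0.22 in the main scaling and at -0.21 in that one, but at -0.06 after quantile normalization, where its log2 fold change was -0.11 (adjusted p = 0.538).

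The ratio of Neat1 to Malat1, chosen after the values were seen, was 0.251, 0.257 and 0.242 in Chow and 0.236, 0.212 and 0.162 in HFpEF. All HFpEF libraries were below all Chow libraries, and HFpEF replicate 3, with its high Malat1, was the lowest. The exact permutation test gave p = 0.1, or 0.25 after Benjamini-Hochberg adjustment over 5 ratios computed between members or with a neighbour gene.

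Genes of the bodies that these RNAs inhabit were measured too. Of 20 tested nuclear speckle genes 4 had an unadjusted p under 0.05 and were higher (Luc7l3, Srsf1, Srsf6 and Srsf7), and none was lower. That is a share of 20.0%, where 10.2% of all tested genes were higher at that p and 23.3% were under it in either direction. The log2 fold change was above 0 for 18 of the 20, and for 6937 of all 14225 tested genes. All HFpEF libraries lay above all Chow libraries for 9 (15.6% of all tested genes) and below them for 1 (19.7%). Their median log2 fold change was 0.13 against -0.01 over all genes. Srsf5 (0.19), Srsf2 (0.17) and Rnps1 (-0.12), among the most abundant of them, had adjusted p of 0.331 to 0.422. Srsf6, another splicing factor of the SR family, had 24.2, 23.2 and 24.4 FPKM in Chow and 26.9, 28.6 and 29.9 FPKM in HFpEF (log2 fold change 0.25, adjusted p = 0.190). Of 24 tested paraspeckle protein genes 1 had an unadjusted p under 0.05 (Cpsf6, at 0.25), and their median log2 fold change was 0.04. Sfpq, an essential paraspeckle protein, was at 0.27 (SE 0.22, adjusted p = 0.469) Hnrnpa1 at 0.15 (adjusted p = 0.544), Cirbp at -0.15 (adjusted p = 0.533) and Hnrnpk, which acts on Neat1 processing, at 0.08 (SE 0.10, adjusted p = 0.650). No gene of the speckle or paraspeckle list passed the adjusted threshold.

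Protein-coding neighbours of Malat1 and Neat1 did not share a direction. Of 8 tested, 1 was higher and 1 lower at an unadjusted p under 0.05, reached by 23.3% of all tested genes. Ltbp3, which binds latent TGF-beta, had 14.4, 12.5 and 12.4 FPKM in Chow and 25.2, 20.5 and 43.5 FPKM in HFpEF (log2 fold change 1.10, adjusted p = 0.118), and passed without HFpEF replicate 3 (0.79, adjusted p = 0.0193). Ehbp1l1 was at -0.31 (adjusted p = 0.161) and passed likewise (-0.35, adjusted p = 0.0360). Without HFpEF replicate 3, 8.36% of all tested genes passed. Cdc42ep2 was at -0.06 (adjusted p = 0.801) and Frmd8 at 0.52 (adjusted p = 0.268).

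Kcnq1ot1 had counted reads in every library, at a very low level per length. It had 0.0611, 0.0659 and 0.0746 FPKM in Chow and 0.0970, 0.0723 and 0.0667 FPKM in HFpEF. The groups overlapped, and HFpEF replicate 1 was the highest. Since its exon is so long, these FPKM stand for 72 to 84 reads a library in Chow and 114 to 125 in HFpEF. Reads are not scaled between libraries, whose FPKM denominators were 11734336 to 14239712 in Chow and 13847565 to 19316914 in HFpEF. Kcnq1ot1 was below the FPKM minimum. With a minimum of 10 recovered reads instead (chosen after the data were seen) its log2 fold change was 0.09 (SE 0.25, limma adjusted p = 0.840). From the recovered reads with voom it was 0.19 (SE 0.22). The 95% interval from voom was -0.32 to 0.69. Without HFpEF replicate 3 the log2 fold change was 0.14. The pseudocount of 0.1 is larger than these FPKM, so the first value understates a difference.

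Kcnq1, on the other strand, shares 121 exonic bases with Kcnq1ot1. The strand setting of the counting is not given in the sources used here. Reads on any part of the Kcnq1ot1 block therefore cannot be assigned to either strand. Whether the Kcnq1ot1 values hold reads from the Kcnq1 strand was not tested. Kcnq1 had 11.5, 10.3 and 10.1 FPKM in Chow and 11.8, 11.3 and 4.68 FPKM in HFpEF, with HFpEF replicate 3 alone below the rest. Among 7 tested domain genes 1 was higher and 2 lower at an unadjusted p under 0.05, reached by 23.3% of all tested genes. The higher was Osbpl5, a lipid transfer protein (log2 fold change 0.57, adjusted p = 0.127). The lower were Nap1l4, a histone chaperone (-0.43, adjusted p = 0.140, or -0.32 and 0.0348 without HFpEF replicate 3), and Cdkn1c, the maternally expressed inhibitor of cyclin-dependent kinases (-0.39, adjusted p = 0.165). In the fit without HFpEF replicate 3, 8.36% of all tested genes passed after adjustment. Cdkn1c had 12.5, 10.3 and 12.3 FPKM in Chow and 9.14, 9.87 and 7.82 FPKM in HFpEF, without overlap. Cd81, the most abundant, was at -0.11 (adjusted p = 0.620).

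Meg3 was higher in all 3 HFpEF libraries. It had 0.947, 0.735 and 0.759 FPKM in Chow and 1.69, 1.66 and 7.07 FPKM in HFpEF. HFpEF replicates 1 and 2 were nearly equal, and replicate 3 was far above them. The means were 0.814 ± 0.116 and 3.47 ± 3.12 FPKM (SD, n = 3 each), a ratio of 4.27, or 2.06 without HFpEF replicate 3. The log2 fold change was 1.64 (SE 0.55, 95% interval 0.32 to 2.95, unadjusted p = 0.0223, limma adjusted p = 0.164), and the exact permutation p was 0.1. Without HFpEF replicate 3 it was 0.96 (SE 0.20) and passed, with adjusted p = 0.0439, in a fit where 8.36% of all tested genes passed and 2.86% passed with a higher level in HFpEF.

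Rian, the host of box C/D snoRNAs, followed Meg3 closely. It had 0.493, 0.397 and 0.304 FPKM in Chow and 0.820, 0.974 and 4.26 FPKM in HFpEF. The lowest HFpEF library was well above the highest Chow library, and replicate 3 again stood highest. The means were 0.398 ± 0.0946 and 2.02 ± 1.94 FPKM (SD, n = 3 each). The log2 fold change was 1.72 (SE 0.61, 95% interval 0.27 to 3.18, limma adjusted p = 0.174), and 1.01 (SE 0.35, adjusted p = 0.143) without HFpEF replicate 3. The ratio of Rian to Meg3 was 0.520, 0.541 and 0.400 in Chow and 0.485, 0.587 and 0.602 in HFpEF. Across libraries it varied by 1.50-fold, while Meg3 itself ranged from 0.735 to 7.07 FPKM.

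Mirg, the host of a large microRNA cluster, was barely detected. It had 8, 0 and 3 recovered reads in Chow and 3, 12 and 77 in HFpEF, which are 0.0770, 0 and 0.0340 FPKM against 0.0297, 0.0971 and 0.547 FPKM. HFpEF replicate 3 alone was clearly above the rest, HFpEF replicate 1 was within the Chow range, and Chow replicate 2 is listed at 0. The exact permutation p was 0.3, and a fit with no minimum gave a log2 fold change of 0.93 (SE 0.66, limma adjusted p = 0.573). Without HFpEF replicate 3 the difference was 0.26.

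Few reads fell elsewhere in the Dlk1-Dio3 interval, most of whose annotated genes are microRNA and snoRNA genes that mRNA libraries may not capture. From Dlk1 to Dio3, a span of 828.3 kb with 118 annotated genes, 254 to 427 reads fell in each Chow library and 656, 873 and 4168 in HFpEF replicates 1, 2 and 3. Meg3, Rian and Mirg together held 89.0% to 93.8% of them in Chow and 94.2% to 97.1% in HFpEF. The paternally expressed protein genes gave few reads: Dlk1, a transmembrane inhibitor of adipocyte differentiation, had 3, 1 and 0 in Chow and 1, 4 and 15 in HFpEF. Rtl1, a retrotransposon-derived gene, had 2, 0 and 0 reads in Chow and 1, 1 and 17 in HFpEF. Dio3, which inactivates thyroid hormone, had 6, 2 and 4 reads in Chow and 0, 7 and 8 in HFpEF. HFpEF replicate 3 had the most reads for each of these genes, but reads are not scaled between libraries. In FPKM Dio3 was at 0.208 in Chow replicate 1 and 0.204 in HFpEF replicate 3. Beyond the domain Wars, a tRNA synthetase gene, was at -0.38 (adjusted p = 0.162), Ppp2r5c at -0.17 (adjusted p = 0.290) and Wdr25 at -0.07 (adjusted p = 0.875).

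**Figure D2:**
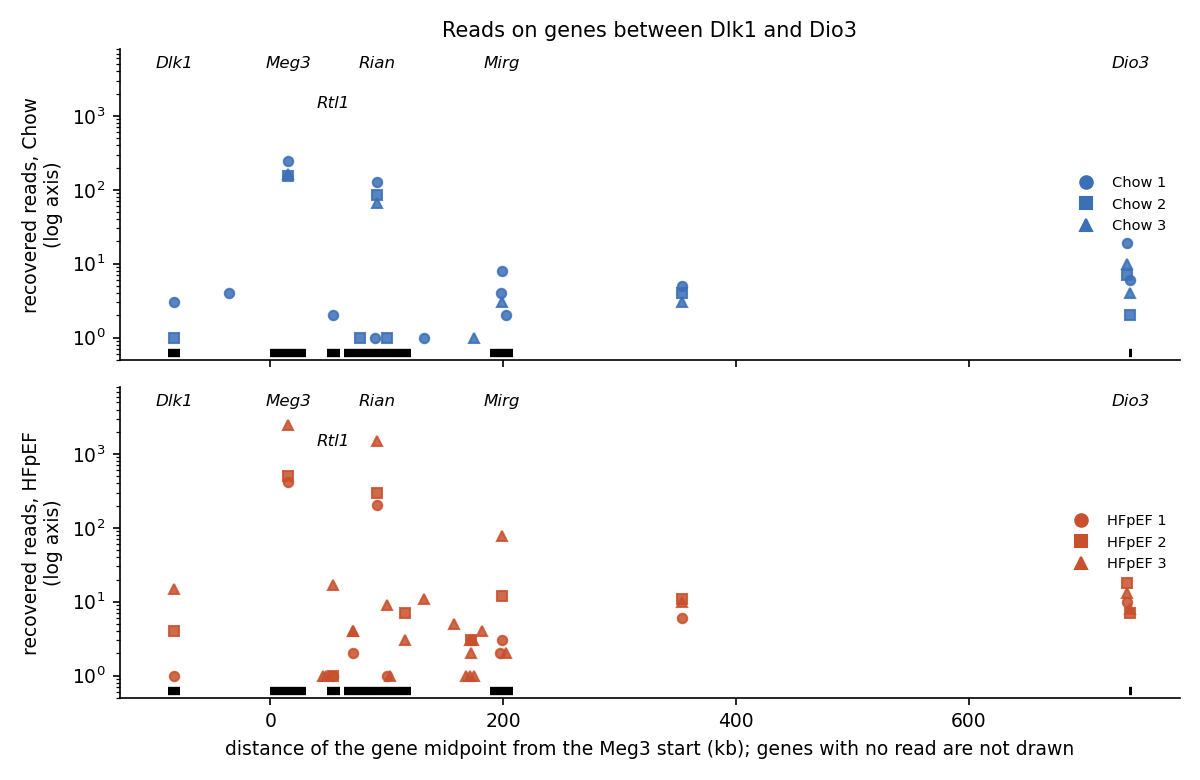
Reads recovered per library (log axis) for genes between Dlk1 and Dio3, by distance from the Meg3 start in kb; black bars are the gene bodies of the 6 named genes, and genes with no read are not drawn. Meg3 and Rian stand above everything else in both groups, at up to 2472 and 1500 reads in HFpEF replicate 3.

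The small RNA genes of the annotation inside the 8 gene bodies gave almost nothing. Of 50 such genes (microRNAs, snoRNAs and other small RNAs) 28 lie wholly in an exon of a member, and all 28 are listed at 0 in every library, Mir199a-2, Mir214, Mir675 and Mir770 among them. A counter of the kind used leaves out, by default, reads that fall on more than 1 gene, so a listed 0 there is not a measurement. Of the 16 outside member exons 8 had any read, at most 7 in a library, and none of the 50 was above 0 in 3 libraries. The 90 microRNA and snoRNA genes between Dlk1 and Dio3 summed to 7, 1 and 1 reads in Chow and 4, 10 and 31 in HFpEF.

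H19 had the highest level of the 5 imprinted or fibroblast members. It had 26.0, 15.9 and 18.1 FPKM in Chow and 31.8, 33.3 and 25.5 FPKM in HFpEF. The groups overlapped by a little, Chow replicate 1 lying just above HFpEF replicate 3. The means were 20.0 ± 5.30 and 30.2 ± 4.11 FPKM (SD, n = 3 each), a ratio of 1.51. The log2 fold change was 0.61 (SE 0.21, 95% interval 0.12 to 1.10, unadjusted p = 0.0226, limma adjusted p = 0.165), and the exact permutation p was 0.2. Without HFpEF replicate 3 it was 0.73 (adjusted p = 0.104), and HFpEF replicate 3 was the lowest of the HFpEF libraries.

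H19 and Meg3 parted in HFpEF replicate 3. The ratio of H19 to Meg3 was 27.5, 21.7 and 23.9 in Chow, 18.8 and 20.0 in HFpEF replicates 1 and 2 and 3.61 in replicate 3. The groups did not overlap (exact permutation p = 0.1, 0.25 after adjustment over the 5 ratios), and the mean ratio in HFpEF was 0.582 of that in Chow, or 0.798 without replicate 3. Igf2, the paternally expressed partner of H19, was at 0.134 to 0.515 FPKM with 13 to 42 reads a library and overlapping groups. Of 4 tested neighbours 1 was higher and 1 lower at an unadjusted p under 0.05, reached by 23.3% of all tested genes. Lsp1, a leukocyte actin-binding protein, had 6.90, 6.69 and 6.81 FPKM in Chow and 11.8, 10.7 and 20.2 FPKM in HFpEF (log2 fold change 1.00, adjusted p = 0.115), and 0.72 (adjusted p = 0.0138) without HFpEF replicate 3. In the latter fit 8.36% of all tested genes passed after adjustment. Mrpl23, a mitochondrial ribosomal protein, was at -0.56 (adjusted p = 0.174), Ctsd at -0.25 (adjusted p = 0.274) and Tnni2 at 0.42 (adjusted p = 0.640).

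Dnm3os differed widely among the HFpEF hearts. It had 0.372, 0.226 and 0.428 FPKM in Chow and 0.874, 0.380 and 3.40 FPKM in HFpEF, or 21 to 42 reads against 96, 51 and 520. HFpEF replicate 2 lay within the Chow range, and replicate 3 was far above all others. The means were 0.342 ± 0.104 and 1.55 ± 1.62 FPKM (SD, n = 3 each), a ratio of 4.53, or 1.83 without HFpEF replicate 3. Under the minimum of 10 reads the log2 fold change was 1.44 (SE 0.68, unadjusted p = 0.0728, limma adjusted p = 0.245), and 0.66 (adjusted p = 0.345) without HFpEF replicate 3. In that fit 0.259% of all genes passed after adjustment, and 11.7% had an unadjusted p under 0.05 and were higher in HFpEF. No member, Kcnq1ot1 and Dnm3os included, passed after adjustment there with all 6 libraries. The ratio of Dnm3os to Meg3 was 0.307 to 0.564 in Chow and 0.229 to 0.518 in HFpEF (exact permutation p = 0.8). Dnm3, in which it lies on the opposite strand with no shared exon, had 0.192 to 0.300 FPKM in Chow and 0.207 to 0.315 FPKM in HFpEF. Among the 4 tested neighbours Vamp4, a vesicle fusion protein, was at 0.33 (adjusted p = 0.164) and Myoc, at 10.3 FPKM in HFpEF replicate 1 alone, at 0.92 (adjusted p = 0.385). Pigc was at -0.25 (adjusted p = 0.301) and Mettl13 at -0.04 (adjusted p = 0.924).

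**Figure D3:**
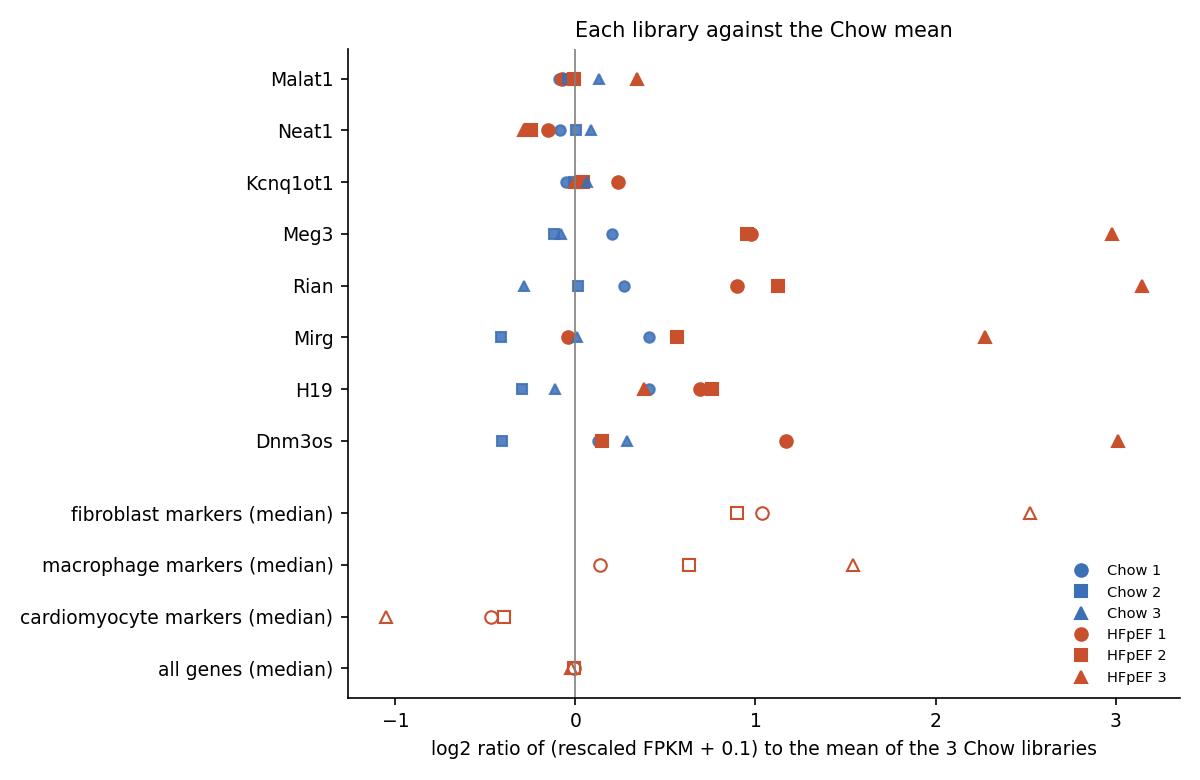
Log2 ratio of each library to the mean of the 3 Chow libraries for the 8 RNAs, from rescaled FPKM plus 0.1 (filled), and the median ratio of 3 marker lists and of all genes in each HFpEF library (open). HFpEF replicate 3 lies near 3 for Meg3, Rian and Dnm3os and at 2.52 for the fibroblast markers, while H19 lies at 0.38 there.

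By the median of the list, markers of fibroblasts were, like Meg3 and Rian, higher in the 3 HFpEF libraries and highest in replicate 3. Mirg in HFpEF replicate 1 and Dnm3os in replicate 2 lay within their Chow ranges. Not every marker had this pattern: Gsn had 599, 512 and 461 FPKM in Chow and 816, 831 and 495 FPKM in HFpEF. Tcf21 in HFpEF replicate 2 (5.30 FPKM) lay below its Chow range of 5.32 to 6.40 FPKM, and Twist2 was highest in replicate 2. Of 16 tested fibroblast markers 12 had an unadjusted p under 0.05 and were higher, where 10.2% of all tested genes were. None passed the adjusted threshold, and the median log2 fold change of the 16 was 1.44 against -0.01 over all genes. A total of 11 passed without HFpEF replicate 3, all higher, with a median of 0.99. In that fit 2.86% of all tested genes passed with a higher level in HFpEF. The median ratio of the list to the Chow mean was 1.04, 0.90 and 2.52 (log2) in HFpEF replicates 1, 2 and 3. Col1a1 reached 2252 FPKM in HFpEF replicate 3 from 24.9 to 27.2 FPKM in Chow, whereas Dcn had 99.7 to 123 FPKM in Chow and 168 to 196 FPKM in HFpEF. Cardiomyocyte markers summed to 15914 to 17528 FPKM in Chow and 7668 to 11922 FPKM in HFpEF, with 5 of 10 lower at an unadjusted p under 0.05 (Myl2, Myl3, Mybpc3, Tnni3 and Actc1) and a median log2 fold change of -0.68. After adjustment 7 passed without HFpEF replicate 3, all lower, with a median of -0.41. Over all tested genes 13.1% were lower at an unadjusted p under 0.05 with all 6 libraries. Without HFpEF replicate 3, 782 of all 14225 tested genes passed after adjustment and were lower. The part of fibroblast markers in the values of these RNAs was not tested.

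Values relative to the markers were computed after the values were seen. Per 1000 FPKM of the summed fibroblast markers Meg3 was at 0.958, 0.846 and 0.964 FPKM in Chow and 1.14, 1.07 and 1.06 FPKM in HFpEF, a range of 1.34-fold. With the collagens left out of the sum it was 0.927 to 1.07 in Chow, 1.26 and 1.27 in HFpEF replicates 1 and 2 and 3.75 in replicate 3. Per 1000 FPKM of Pdgfra, the receptor that marks resident fibroblasts, it was 92.2 to 121 in Chow, 150 and 143 in HFpEF replicates 1 and 2 and 545 in replicate 3. Per summed fibroblast markers Rian varied by 1.66-fold and Dnm3os by 2.41-fold, with HFpEF replicate 2 the lowest of the 6 libraries for Dnm3os. With the collagens left out of the sum Rian varied by 5.27-fold and Dnm3os by 6.32-fold. Per Pdgfra they varied by 6.77-fold and 9.24-fold. By both of these measures HFpEF replicate 3 was the highest library for either RNA. For H19 the value per Pdgfra varied by 1.62-fold over the 6 libraries (1965 to 3186) and the value per summed fibroblast markers by 6.85-fold.

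Markers of other cell types gave the following values, where 10.2% of all tested genes were higher and 13.1% lower at an unadjusted p under 0.05. Macrophage markers, 3 of 8 higher at an unadjusted p under 0.05 (Cd68, C1qc and Csf1r), summed to 233 to 295 FPKM in Chow and 289, 393 and 950 FPKM in HFpEF replicates 1, 2 and 3. Of 7 tested adipocyte markers 4 passed the adjusted threshold, all higher (Cfd, Car3, Cidec and Adipoq), but these reached the FPKM minimum only through the HFpEF libraries, so the count is no support, and the sum was 8.27 to 8.49 FPKM in Chow and 43.3 to 106 FPKM in HFpEF. Cfd (adipsin), Cidec and Adipoq are listed at 0 in every Chow library, and Car3 is at most 0.0297 FPKM there. Cartilage, tendon and valve markers summed to 11.1 to 16.4 FPKM in Chow and 47.9 to 82.0 FPKM in HFpEF (Comp, Fmod, Sox9 and Cilp2 of 7 tested were higher at an unadjusted p under 0.05). Mesothelial markers summed to 18.7 to 29.3 FPKM in Chow and 36.4 to 131 FPKM in HFpEF, with Krt19, Msln and Upk3b of 6 higher by the same measure. The smooth muscle and pericyte markers were mixed, with a summed FPKM of 318 to 358 in Chow and 705, 233 and 530 in HFpEF replicates 1, 2 and 3. The pericyte genes Abcc9 and Kcnj8 of 7 tested were lower at that threshold, while Acta2 (log2 fold change 1.38, adjusted p = 0.309), Cnn1 (1.83, adjusted p = 0.360) and Myh11 (1.16, adjusted p = 0.367), of the contractile apparatus, had higher means with overlapping groups. By that measure 3 of 9 endothelial markers (Cdh5, Kdr and Tie1) were lower, and neither the 3 tested skeletal muscle markers nor the 1 tested liver marker was under an unadjusted p of 0.05. Of the macrophage, adipocyte, cartilage and mesothelial sums, that of macrophages alone was highest in HFpEF replicate 3. Their part in the values of the 8 RNAs was not tested.

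Genes with patterns like those of the members were sought by the root mean square (RMS) difference over the 6 log2 ratios. Nearest to Meg3 were Sfrp1, a secreted Wnt antagonist (RMS 0.13), Gxylt2, a glycosyltransferase of Notch (0.13), and Rian (0.15), out of all 14225 tested genes. Sfrp1 had 7.63, 7.02 and 5.84 FPKM in Chow and 13.8, 13.2 and 46.8 FPKM in HFpEF. Nearest to Rian were Meg3 (0.15), Sfrp1 (0.18) and Lhfpl2 (0.21). Nearest to H19 were Hykk (0.08), Lgi4 (0.11) and Prrt1 (0.12), each under 2 FPKM in every library. Mrfap1, Snx5 and Exoc1 were nearest to Malat1 (0.03 to 0.04), and Tmem80, Klhdc10 and Larp7 to Neat1 (0.03). Larp7 encodes a protein that binds the 7SK RNA.

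Other imprinted genes gave a partly similar picture. Of 18 tested genes of the imprinted gene network 6 were higher and 1 lower at an unadjusted p under 0.05. That is a share of 38.9%, where 23.3% of all tested genes were under that p. None passed after adjustment, and the median log2 fold change was 0.17. Plagl1, a zinc finger factor of that network, had 1.33, 0.861 and 1.45 FPKM in Chow and 3.79, 3.99 and 3.33 FPKM in HFpEF (log2 fold change 1.56, SE 0.21, adjusted p = 0.0675). Peg3, another zinc finger gene, had 1.26, 0.991 and 1.68 FPKM in Chow and 4.17, 4.70 and 2.61 FPKM in HFpEF (1.46, adjusted p = 0.0988). For both, all HFpEF libraries were above all Chow libraries, and HFpEF replicate 3 was the lowest of the HFpEF libraries, as for H19. Ndn (4.24, 4.01 and 6.21 FPKM in HFpEF; log2 fold change 1.02, adjusted p = 0.118), Sgce (2.51, 2.70 and 3.55 FPKM; 0.52, adjusted p = 0.155) and Dcn were instead highest in replicate 3, as Meg3 was, and Gatm (2.12, 2.89 and 2.36 FPKM; 0.75, adjusted p = 0.119) in replicate 2. Plagl1, Peg3 and Dcn passed the adjusted threshold without HFpEF replicate 3, in a fit where 2.86% of all tested genes passed with a higher level in HFpEF. Igf2r was at -0.11 (adjusted p = 0.633) and Snrpn at -0.45 (adjusted p = 0.301).

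Against the other long noncoding RNAs the members' higher values were not the rule. Of 831 tested long noncoding RNA genes 41 were higher and 87 lower at an unadjusted p under 0.05, with a median log2 fold change of -0.08. That is 15.4% in either direction, where 23.3% of all tested genes were under that p (10.2% higher and 13.1% lower). Gm31013, named after its values were seen, alone passed after adjustment, with 10.2, 12.2 and 10.8 FPKM in Chow and 4.85, 4.29 and 4.20 FPKM in HFpEF (log2 fold change -1.29, adjusted p = 0.0329). In a list of other named ones, 30 tested, 2 were higher and 1 lower, with a median of 0.17. The lower was Chaer1, a heart-enriched RNA tied to hypertrophy, with 5.50, 6.41 and 4.19 FPKM in Chow and 2.22, 0.997 and 0.795 FPKM in HFpEF (log2 fold change -2.04, SE 0.37, adjusted p = 0.0963), and -1.76 (adjusted p = 0.0443) without HFpEF replicate 3. In the latter fit 8.36% of all tested genes passed after adjustment. The higher were the snoRNA hosts Snhg18 (0.80, adjusted p = 0.132) and Snhg5 (0.67, adjusted p = 0.169). Mhrt, antisense to Myh7, was at -0.27 (adjusted p = 0.491), 2900097C17Rik at -0.07 (adjusted p = 0.667), Peg13 at -0.17 (adjusted p = 0.471) and Mir22hg at 0.00 (adjusted p = 0.985). Of the genes that make microRNAs 1 of 14 tested was under an unadjusted p of 0.05 (Ago3, at 0.37), with a median of -0.05. Drosha, which cuts primary microRNA transcripts, was at -0.32 (adjusted p = 0.282), and Ran, Prkra and Tarbp2 were at -0.05, -0.18 and -0.12 (adjusted p = 0.381 to 0.823).

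**Figure D4:**
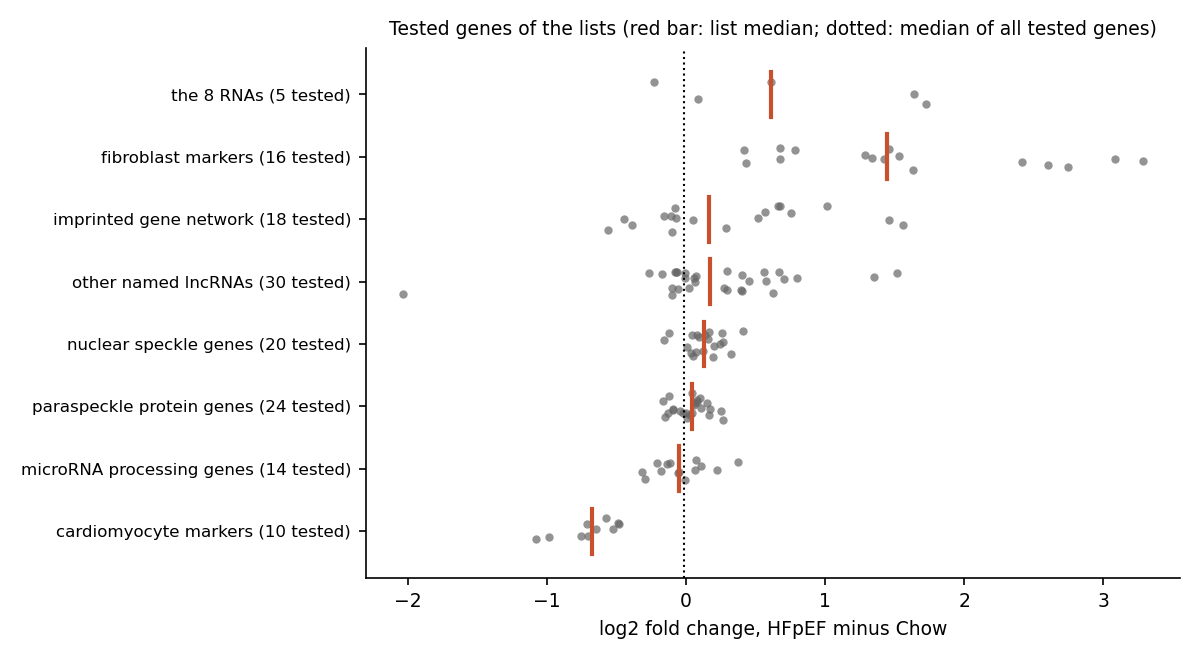
Log2 fold changes (HFpEF minus Chow) of the tested genes of each list, 1 point a gene, with the list median as a red bar and the median of all tested genes dotted. The fibroblast list has its median at 1.44 and the cardiomyocyte list at -0.68, and Meg3 and Rian lie among the fibroblast values.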

How the data were processed

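RNA was extracted from heart tissue of 3 Chow and 3 HFpEF mice, and 1.3 ug of total RNA per library was made into mRNA libraries. Per the labels and methods, the authors aligned reads to GRCm38 (mm10 in the submitters' processing notes) with HISAT2, counted genes with featureCounts and deposited FPKM per gene, with no counts in the table. Strand setting and treatment of reads on several genes are not given in the sources used here. Groups came from the sample titles. Of 54532 identifiers 54495 matched GENCODE M21.

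FPKM were rescaled by median of ratios, and log2(FPKM + 0.1) was fitted with limma 3.58.1 in R 4.3.3 (eBayes with trend and robust options, no covariate, Benjamini-Hochberg over all genes), for genes with at least 0.5 FPKM in at least 3 libraries. The rescaling factors were 0.9986 to 1.0018, so the main scaling and the FPKM as deposited are nearly the same. A fold change on this scale understates the change of low genes. The study's own rule for differential genes also asks a log2 fold change whose size is 2 or more. Because the unit is FPKM, no count model was the main test. FPKM times exon length gave whole multiples of 1 read for 96.1% to 96.2% of values (relative tolerance 1e-06), and those recovered reads, 13076772 to 16027084 a library, were fitted with voom as an alternative, which called 0 genes after adjustment and 3356 at an unadjusted p under 0.05. On simulated data for this comparison (14220 genes, 200 changed by a log2 fold of 2, dispersion 0.05) the fit recovered 186 and called 13 unchanged genes. The simulation had the same dispersion for every gene and no library that stands apart as HFpEF replicate 3 does. It therefore does not give the power of the real comparison.

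The members, lists and tests were chosen with earlier results of these data known. Named genes are every member, at most 4 of each list by mean FPKM, in neighbour, imprinted and long noncoding lists also those passing or else the 3 with the lowest p, and the 3 nearest to each tested member. Of the genes this rule names, 1 is not reported here. Pdgfra, Igf2, Dlk1, Rtl1, Dio3, Dnm3 and others outside that rule (genes counted in lists, small RNA genes) were named after their values were seen. Alternatives were 3 scalings, 2 pseudocounts, 2 filters, plain eBayes, voom, a replicate block, leaving out each library, and a minimum of 10 reads. List counts without HFpEF replicate 3 were added after the data were seen.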

Additional observations from a re-analysis of the deposited data

How the results depend on the processing

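Without HFpEF replicate 3 the number of members with an adjusted p under 0.05 was 1 (Meg3, adjusted p = 0.0439), and 1 also with a minimum of 10 reads (adjusted p = 0.0339); over the leave-one-out fits it ran from 0 to 1, and over the other alternatives it was 0. The adjusted p of Meg3 ran from 0.0339 to 0.381 over 24 alternatives. The number with an unadjusted p under 0.05, 3 with all libraries, ran from 0 to 4 over the leave-one-out fits, with 0 without Chow replicate 2 or 3 at either minimum. Malat1 turned to -0.0413 without HFpEF replicate 3 at either minimum (leave-one-out range -0.0413 to 0.164) and was 0.39 after quantile normalization, and Neat1 to 0.0255 when scaled to genes not mitochondrially encoded, where Kcnq1ot1 was at 0.20. Mirg was at 1.98 with a pseudocount of 0.01. The cause of these shifts was not tested. Meg3, Rian, H19 and Dnm3os kept their direction in every alternative run. The replicate numbers did not pair the samples (correlations of deviations -0.04, -0.07 and -0.06). With the replicate block the unadjusted count was 3 and the adjusted count 0, and calls over all genes went from 14 to 2. Other counts over all genes were 3 and 5 with pseudocounts 1 and 0.01, 77 with the non-mitochondrial scaling, 32 with plain eBayes, 39 with 10 reads, 0 with voom, and 2 to 1189 with a library left out. Depth limits Mirg, with 0 to 77 reads, most.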
